A study of Mus musculus with 8 samples.

Results

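The minichromosome maintenance (MCM) genes were Mcm2, Mcm3, Mcm4, Mcm5, Mcm6, Mcm7 and Mcm10, and every array probe annotated with one of these 7 symbols was taken. This gave 13 probes of 25697 and 7 genes of 16593 symbols, and all 7 genes were among the 8488 genes tested. The cells were mouse embryonic fibroblasts (MEFs), primary cultures from C57BL6J embryos at E12.5, and every culture carried floxed H3f3b alleles (H3f3b Fl/Fl). H3f3b is one of the genes for histone H3.3, a variant of H3 that is placed in chromatin outside of S phase as well as during it. Lines cKO1, cKO2 and pcKO1 were each transduced with Cre retroviruses, which remove the floxed sequence, or with the GFP vector alone as the control, and RNA was hybridized to an Illumina bead array. There were 8 arrays, 4 Cre and 4 GFP, with 1 of each for cKO1 and pcKO1 and 2 of each for cKO2. The cKO2 repeats were analytical duplicates by the study's methods, so they were averaged and n was 3 lines. The study's results also speak of 2 biological replicates of the conditional knockout, without saying which cultures these were. Whether the cKO2 repeats were separate cultures is thus not settled. The labels do not state whether the lines came from separate embryos. The deposited table of detection p-values names its columns MEF D, MEF G1, MEF G2 and MEF D pooled, without tying them to the labelled lines, so lines may share a source of cells or hold a pool. This bears on every n of 3 lines and on each comparison between lines, and p-values measure only the spread between these cultures.

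The proteins of Mcm2 to Mcm7 form the ring-shaped helicase that is loaded onto replication origins in G1 and unwinds DNA ahead of the fork in S phase. Mcm10 lies outside the ring and helps the loaded helicase to become active and stay with the fork. Their transcripts are made mainly in cycling cells, largely under E2F transcription factors, and fall when fibroblasts leave the cell cycle.

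The start regions of these genes are shown because E2F sites are the best known control that the family shares. RefSeq promoter windows (build GRCm38.p6, 250 bases before to 50 bases after a start) were held for 6 of the 7 genes, all but Mcm4, with 2 starts for Mcm7. In the windows below, capitals mark the E2F core letters TTCCCGC or TTGGCGC on either strand, and in Mcm5 also the CCAAT box. Each is printed 5′ to 3′ along the gene.
Mcm5, chr8:75109259-75109508, plus strand: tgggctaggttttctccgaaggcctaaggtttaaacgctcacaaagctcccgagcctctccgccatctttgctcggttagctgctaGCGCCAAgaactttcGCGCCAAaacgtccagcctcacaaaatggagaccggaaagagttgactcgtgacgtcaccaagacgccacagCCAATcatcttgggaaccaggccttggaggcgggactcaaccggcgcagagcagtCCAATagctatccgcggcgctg
Mcm6, chr1:128359736-128359825, minus strand: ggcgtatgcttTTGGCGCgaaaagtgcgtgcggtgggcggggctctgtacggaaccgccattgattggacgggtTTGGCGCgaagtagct
Mcm3, chr1:20820264-20820293, minus strand: GCGGGAAaacttgggaagttTTGGCGCCAA
Mcm7 first start, chr5:138172014-138172063, minus strand: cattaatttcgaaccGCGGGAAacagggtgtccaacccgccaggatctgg
Mcm7 second start, chr5:138171347-138171396, minus strand: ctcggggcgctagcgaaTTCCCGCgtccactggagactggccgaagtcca
These letters were in the windows of Mcm3, Mcm5, Mcm6 and Mcm7, 4 of 6 genes, and in 6.81% of all 32851 windows of this length. In Mcm3 the last core, TTGGCGC, overlaps a GCGCCAA on the other strand. For E2F only these letters were searched, and Mcm2 and Mcm10 had none of them in the window. Their CCAAT boxes (CCAAT or ATTGG) are in capitals here.
Mcm10, chr2:5012792-5012901, minus strand: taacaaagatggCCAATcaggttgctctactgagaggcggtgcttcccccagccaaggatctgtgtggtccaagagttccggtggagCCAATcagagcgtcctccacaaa
Mcm2, chr6:88898911-88898970, minus strand: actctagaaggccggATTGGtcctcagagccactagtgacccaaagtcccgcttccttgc
All 6 genes had a CCAAT box, which 37.4% of all windows had, and 5 of 6 had the GC box GGGCGG on either strand, which 35.7% had. The cell cycle homology element TTTGAA, on either strand, was in Mcm2 alone among the 6, against 17.9% of all windows. A match of letters is a description of the sequence and does not show a bound factor.

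The deletion was visible on the arrays. H3f3b differed by -4.20 ± 0.51 on the log2 scale between Cre and GFP (SE, n = 3 lines), the lines giving -5.32 (cKO1), -5.11 (cKO2) and -2.17 (pcKO1). The adjusted p was 0.188 over all genes by limma, and H3f3b was lower with Cre in 3 of 3 lines. Between 9741 and 10888 probes were detected on the Cre arrays and between 10134 and 10580 on the GFP arrays. Of the fibroblast markers, 7 of 8 on the array were detected, among them Col1a1, Col1a2 and Vim, while Postn was detected on 0 arrays. The summed signal of 5 macrophage markers was 6739 in pcKO1 with GFP and 4535 with Cre, against 658 to 854 on the other 6 arrays. Lyz2 led them with 5227.6 and 3219.8 in pcKO1 against 113 to 139.4 elsewhere, while Ptprc, the leukocyte antigen CD45, was detected on 0 arrays. The part of these markers in the pcKO1 values below was not tested. No endothelial marker (0 of 6) and no erythroid marker (0 of 3) was detected on at least 3 arrays, while 4 of 6 neural markers (Map2, Dcx, Stmn2 and Nes), 2 of 4 epithelial markers (Krt8 and Cldn7) and 1 of 4 muscle markers (Tnnt1) were. The summed neural signal was 1051 to 1121 in cKO2, against 1533 and 1672 in cKO1 and 1571 and 1580 in pcKO1. The summed fibroblast signal was 24197 in cKO1 with Cre, the lowest of all arrays, and 29639 to 39844 on the other 7. The part of these lists in the differences between lines was not tested.

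Of the 13 MCM probes, 9 were detected on at least 3 of 8 arrays. The brightest probe stood for each gene, and only Mcm6 had more than one detected probe, with 3. The tested probes of Mcm2, Mcm3, Mcm4, Mcm5 and Mcm6 were detected on 8 of 8 arrays, and those of Mcm7 and Mcm10 on 4 of 4 GFP and 3 of 4 Cre arrays. The other 4 probes, 2 for Mcm4 and 1 each for Mcm6 and Mcm10, were detected on 0 or 2 arrays and were left out. In bulk RNA, fewer cycling cells and less transcript per cell cannot be told apart. Values per array below are deposited intensities, scaled by the authors to 1 common mean, and log2 values come from the normalized intensities.

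The change after Cre had opposite directions in different lines. With Cre, all 7 MCM transcripts were higher than with GFP in cKO1 and lower in pcKO1 and in both cKO2 pairs. For Mcm7 in pcKO1 the deposited intensities hardly differed, at 156.6 (GFP) and 155.2 (Cre). Both were close to the array medians of 137.7 and 148.7, so this direction is weakly held. Over the 3 lines the log2 changes lay near 0, from -0.31 for Mcm5 to 0.01 for Mcm7. None of the 7 passed limma's test, in which 0 of 8488 genes passed in either direction (0% called) and 312 genes, no MCM gene among them, had an unadjusted p under 0.05. The result depends on cKO1, the only line with MCM changes above 0. With cKO1 left out, Mcm4 (-0.57, adjusted p = 0.00255), Mcm5 (-0.82, adjusted p = 2.7e-06) and Mcm10 (-0.51, adjusted p = 0.0456) were lower with Cre by limma. That fit held only cKO2 and pcKO1, had 1 residual degree of freedom and called 61 of all genes lower and 39 higher. Since the line with the opposite direction was the one left out, the shared direction of the others follows from that choice.

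**Figure D1:**
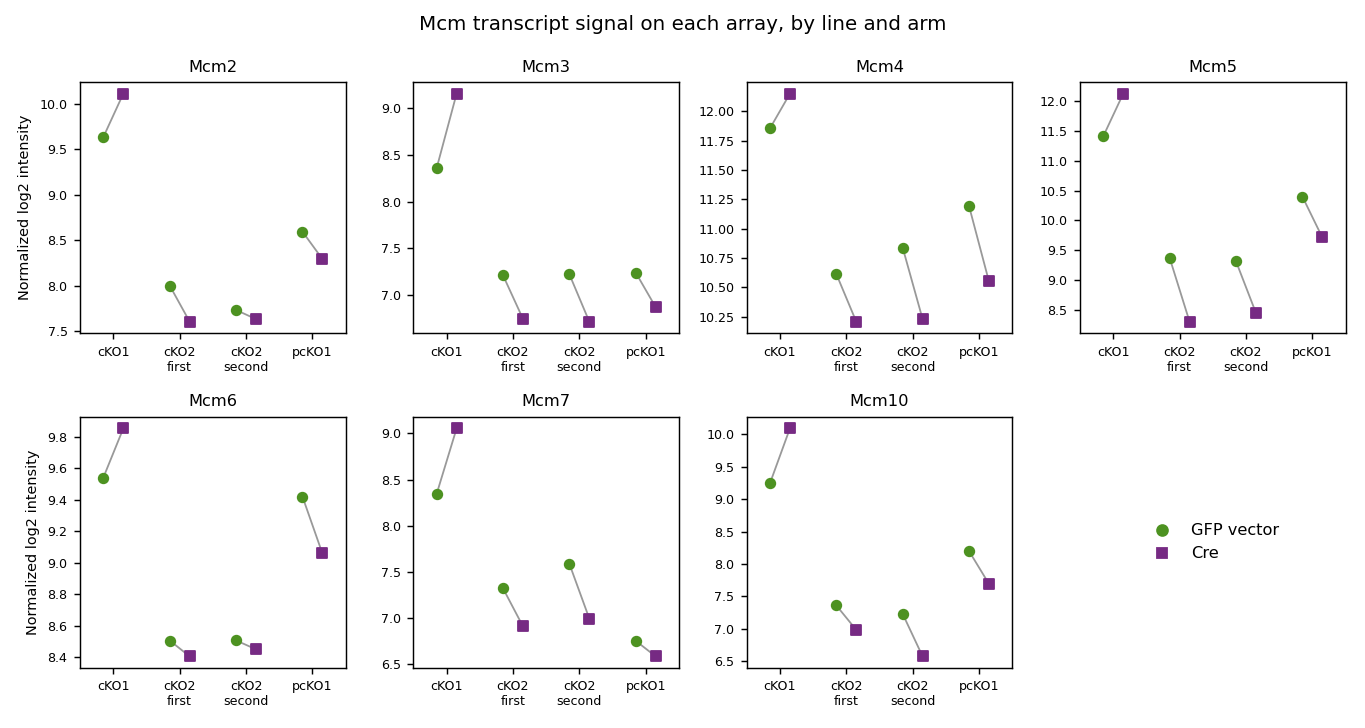
Normalized log2 intensity of the tested probe of each MCM gene (vertical axes, which differ between panels) on the 8 arrays, by line and cKO2 duplicate pair. Circles are GFP and squares Cre, a line joins the arrays of 1 pair, and in every panel the cKO1 pair is the highest and slopes up while the other 3 pairs slope down.

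Mcm2 is a ring subunit whose tail binds histones H3 and H4 and helps to pass parental histones to the new strands. Its intensity was 824.2 (GFP) and 1085.3 (Cre) in cKO1, 443.9 and 373.7 in pcKO1, and 307.8 and 242.5, then 265.6 and 248.1, in the duplicate pairs of cKO2. Both cKO1 arrays were above the other 6, and the cKO2 arrays of both arms were the lowest 4. On the log2 scale the change was 0.48 in cKO1, -0.30 in pcKO1 and -0.25 in cKO2 (pairs -0.40 and -0.10), with a mean of -0.02 ± 0.18 (SE, n = 3 lines, 95% interval -0.44 to 0.39, adjusted p = 0.996 by limma). The cKO2 duplicates disagreed by 0.30 on the size of the change.

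Mcm5 is the ring subunit next to Mcm2, and the interface of these subunits is the gate through which DNA enters. Mcm5 had intensities of 2874.5 (GFP) and 4490.6 (Cre) in cKO1, 1385.5 and 890.7 in pcKO1, and 738.5 and 363, then 697.5 and 411.4, in the duplicate pairs of cKO2. No value of a line lay within the range of another line. The lines had log2 changes of 0.71 (cKO1), -0.68 (pcKO1) and -0.96 (cKO2, pairs -1.07 and -0.86). In cKO2 and pcKO1 these were the lowest values of the family. The mean over lines was -0.31 ± 0.28 (SE, n = 3 lines, 95% interval -0.96 to 0.34, adjusted p = 0.967 by limma).

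Mcm3, on the other side of Mcm5, had intensities of 361.2 without and 576.4 with Cre in cKO1 and of 204 and 176.6 in pcKO1, while the duplicates of cKO2 read 194.6 and 154.6, then 202.4 and 147. Outside cKO1 the 3 GFP arrays were above the 3 Cre arrays. On the log2 scale the change was 0.79 in cKO1, -0.37 in pcKO1 and -0.48 in cKO2 (pairs -0.46 and -0.51), with a mean of -0.02 ± 0.24 (SE, n = 3 lines, 95% interval -0.57 to 0.53, adjusted p = 0.998 by limma).

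Mcm4, Mcm6 and Mcm7 make up the part of the ring with helicase activity on its own. Mcm4 had intensities of 3873.8 (GFP) and 4553.1 (Cre) in cKO1, 2409.3 and 1541.3 in pcKO1, and 1647.5 and 1239.2, then 1877.6 and 1316.7, in the duplicate pairs of cKO2. The pcKO1 array with Cre fell among the GFP arrays and Cre arrays of cKO2, below both GFP values and above both Cre values. The lines had log2 changes of 0.29 (cKO1), -0.64 (pcKO1) and -0.51 (cKO2, pairs -0.41 and -0.61), with a mean of -0.28 ± 0.18 (SE, n = 3 lines, 95% interval -0.71 to 0.14, adjusted p = 0.967 by limma). Another Mcm4 probe, detected on 2 arrays and not tested, had 0.41 (cKO1), 0.07 (pcKO1) and -0.26 (cKO2). The remaining Mcm4 probe was detected on 0 arrays and had 0.44 in pcKO1.

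Mcm7 had intensities of 358.3 without and 542.6 with Cre in cKO1 and of 156.6 and 155.2 in pcKO1, while the duplicates of cKO2 read 206.4 and 166.9, then 244.3 and 171.3. It was the one MCM gene with its lowest values in pcKO1, where the values of the arms were close. On the log2 scale the change was 0.71 in cKO1, -0.17 in pcKO1 and -0.50 in cKO2 (pairs -0.41 and -0.59), with a mean of 0.01 ± 0.22 (SE, n = 3 lines, 95% interval -0.49 to 0.52, adjusted p = 0.9996 by limma). The microRNA genes Mir25, Mir93 and Mir106b lie within Mcm7 on the same strand and were not measured here. Ap4m1, which starts next to Mcm7 and runs the other way, had log2 changes of -0.24 (cKO1), 0.24 (pcKO1) and 0.00 (cKO2), opposite in sign to those of Mcm7 in cKO1 and pcKO1.

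Mcm6 had intensities of 771.6 (GFP) and 923.4 (Cre) in cKO1, 744.8 and 589.2 in pcKO1, and 426.8 and 387.3, then 422.3 and 410.3, in the duplicate pairs of cKO2. The GFP arrays of cKO1 and pcKO1 were close, and the cKO2 arrays lay below all others. The lines had log2 changes of 0.31 (cKO1), -0.36 (pcKO1) and -0.08 (cKO2, pairs -0.10 and -0.06), with a mean of -0.04 ± 0.16 (SE, n = 3 lines, 95% interval -0.41 to 0.33, adjusted p = 0.992 by limma). The other detected Mcm6 probes had the same directions with larger differences in cKO2. ILMN_1233857 had Cre minus GFP values of 0.33, -0.46 and -0.32 in cKO1, cKO2 and pcKO1 (log2), and ILMN_2803399 had 0.50, -0.69 and -0.64.

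**Figure D2:**
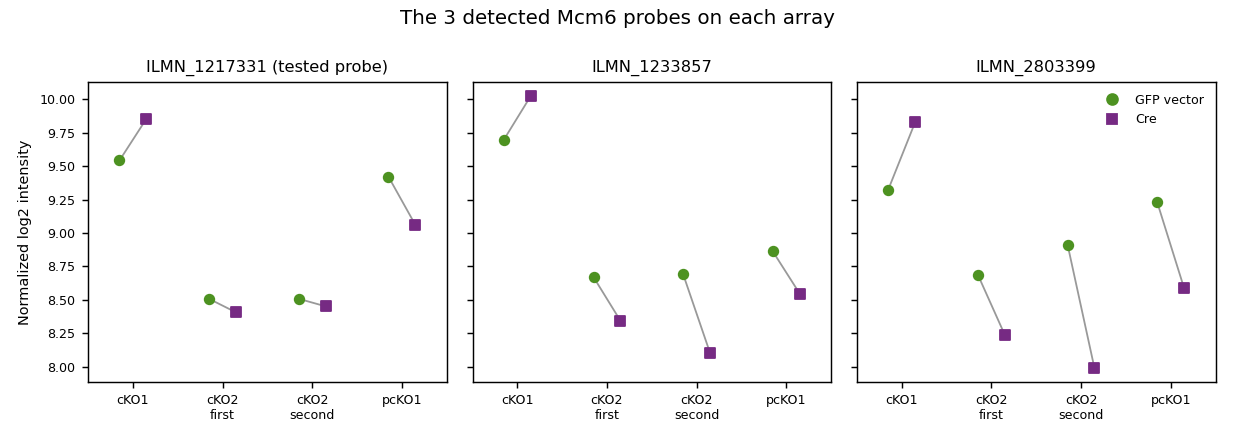
Normalized log2 intensity of the 3 detected Mcm6 probes (vertical axis, shared) on the 8 arrays, with circles for GFP and squares for Cre and a line joining each pair. The cKO2 pairs are nearly flat at ILMN_1217331, -0.08 on the log2 scale, and slope down at the other probes, -0.46 and -0.69.

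Mcm10 had intensities of 638.4 without and 1066.2 with Cre in cKO1 and of 349.8 and 267 in pcKO1, while the duplicates of cKO2 read 211 and 173.4, then 203 and 136.8. The lines did not overlap, in the order cKO1, pcKO1 and cKO2. On the log2 scale the change was 0.84 in cKO1, the highest of the family there, -0.50 in pcKO1 and -0.52 in cKO2 (pairs -0.38 and -0.65). The mean was -0.06 ± 0.26 (SE, n = 3 lines, 95% interval -0.65 to 0.53, adjusted p = 0.995 by limma). A second Mcm10 probe, detected on 2 arrays and not tested, had its highest intensities of 269.3 and 150.5 in cKO1 with Cre and with GFP. Its log2 changes were 1.10 (cKO1), -0.17 (pcKO1) and -0.02 (cKO2), and the cKO2 pairs differed in sign (-0.14 and 0.10).

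**Figure D3:**
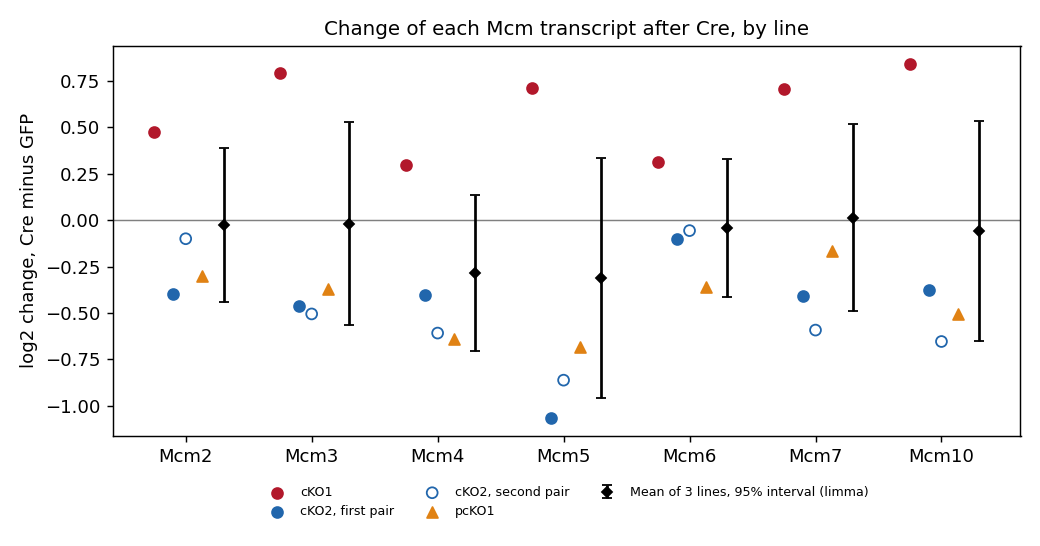
Log2 change (Cre minus GFP, vertical axis) of each MCM gene in cKO1, in the first and second cKO2 pair and in pcKO1, with the mean of the 3 lines and its 95% interval from limma in black. All 7 cKO1 points lie above 0, between 0.29 and 0.84, all others lie below it, and all 7 intervals include 0.

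The sign pattern, read from these same MCM values, was then set against all genes. The 7 MCM genes vary together over the arrays and are not separate observations of it. A change above 0 in cKO1 was found for 7 of 7 MCM genes and 47.5% of all genes, and one below 0 for 7 of 7 in cKO2 (48.5%) and in pcKO1 (50.9%). The whole pattern, above 0 in cKO1 and below 0 in both cKO2 pairs and pcKO1, was found for 7 of 7 MCM genes and for 7.16% of all genes (608). These counts include Mcm7 in pcKO1, whose deposited intensities hardly differed between the arms. The MCM genes had a median log2 change of 0.71 (cKO1), -0.50 (cKO2) and -0.37 (pcKO1), and over all genes it was -0.03, 0.01 and -0.01. Changes of at least 1.2-fold were seen for 7 of 7 MCM genes upward in cKO1 (22.1% of all genes), 5 of 7 downward in cKO2 (5.94%), all but Mcm2 and Mcm6, and 6 of 7 downward in pcKO1 (14.4%), all but Mcm7. Changes were more spread in cKO1 over all genes as well, with an SD of 0.42 on the log2 scale against 0.18 in cKO2 and 0.26 in pcKO1. These are descriptions with no test, since each line was counted as 1 culture per arm. The cKO2 duplicate arrays give the spread between repeats, which is technical error only if both came from the same culture. The MCM values differed between them by a median of 0.13 (log2) with GFP and 0.04 with Cre, at most 0.27 and 0.41. The change itself differed by a median of 0.20 between the cKO2 pairs, and by 0.30 for Mcm2, more than its change of -0.25 in that line.

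The lines differed from each other more than the arms did. Both cKO1 arrays were above all 6 others for 7 of 7 MCM genes, as for 19.8% of all genes. The line accounted for a median of 91.9% of the sum of squares of an MCM gene (81.4% over all genes) and the arm for 0.0669% (3.61%). The arm share counts only the mean change over the lines, in which opposite changes cancel. The remaining share, which holds changes that differ between lines, had a median of 8.09% (11.1%). In the test between lines, each line's cultures were Cre and GFP, so that lines were set apart only beyond the spread left between those cultures. All 7 MCM transcripts were lower in cKO2 than in cKO1 at an adjusted p under 0.05 by limma, from 2.34-fold for Mcm6 (-1.23 ± 0.20 on the log2 scale, adjusted p = 0.00211) to 7.48-fold for Mcm5 (-2.90 ± 0.35, adjusted p = 0.000536). Of all genes, 18.4% were lower and 19.3% higher in this comparison, and no MCM gene was higher. Mcm10 followed at 6.18-fold (-2.63 ± 0.32, adjusted p = 0.000549) and Mcm2 at 4.38-fold (-2.13 ± 0.22, adjusted p = 0.000281). Mcm3, Mcm4 and Mcm7 were 3.43-fold, 2.89-fold and 2.82-fold lower. Some cKO2 intensities with Cre were close to the array medians of 137.7 (first) and 131 (second). Mcm3 read 154.6 and 147 on these arrays, and Mcm10 read 136.8 on the second. Without background correction the differences were smaller for Mcm10 (-2.25), Mcm3 (-1.46) and Mcm7 (-1.24), and all 7 MCM transcripts still passed.

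In pcKO1 against cKO1, 6 of 7 MCM transcripts were lower at an adjusted p under 0.05 by limma (13.8% of all genes were lower and 15.3% higher). Mcm7 differed by -2.03 ± 0.27 on the log2 scale (adjusted p = 0.00141), but its intensities of 156.6 and 155.2 in pcKO1 were close to the array medians of 137.7 and 148.7, and without background correction the difference was -1.63 (adjusted p = 0.00159). The smallest difference of the 6 was that of Mcm4, 2.19-fold (-1.13 ± 0.23, adjusted p = 0.00817). Mcm6 was the exception, with -0.46 ± 0.20 (1.37-fold, adjusted p = 0.121). In the GFP cultures it differed by -0.12 between these lines, and in the Cre cultures by -0.79. It passed without the cKO1 GFP value (-0.72, adjusted p = 0.000484), where 2026 of all genes were lower, and without the pcKO1 GFP value (-0.69, adjusted p = 0.0497), where 1114 were. Such a fit leaves 1 value in a compared line, which is assumed to vary like the other lines. Its other probes, each tested singly, gave -1.16 (ILMN_1233857, adjusted p = 0.00554 by limma) and -0.67 (ILMN_2803399, adjusted p = 0.107).

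Between pcKO1 and cKO2, 2 of 7 MCM transcripts differed. Mcm5 was 2.29-fold higher in pcKO1 (SE 0.35, 95% interval 0.40 to 1.99 on the log2 scale, adjusted p = 0.0446 by limma) and Mcm6 was 1.71-fold higher (0.77 ± 0.20, adjusted p = 0.0291), where 9.8% of all genes were higher and 9.97% lower. The Mcm6 difference was 0.25 and 0.45 at its other probes, with adjusted p = 0.445 and 0.291, so that the call was held by 1 probe of 3. Mcm5 no longer passed without the cKO2 Cre value (0.71, adjusted p = 0.329), nor Mcm6 without the cKO2 GFP, pcKO1 GFP or cKO2 Cre value (0.53 to 0.80, adjusted p = 0.226 to 0.285), in fits of the same kind. Mcm10 (0.91 ± 0.32, adjusted p = 0.0767), Mcm2 (0.70 ± 0.22, adjusted p = 0.0571) and Mcm4 (0.40 ± 0.23, adjusted p = 0.254) did not pass. Mcm3 was at 0.08 ± 0.29 (95% interval -0.59 to 0.75) and Mcm7 at -0.53 ± 0.27 (95% interval -1.15 to 0.08), the one value below 0. The macrophage markers that stood out in pcKO1 move with this comparison and the one before it, and their part was not tested.

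**Figure D4:**
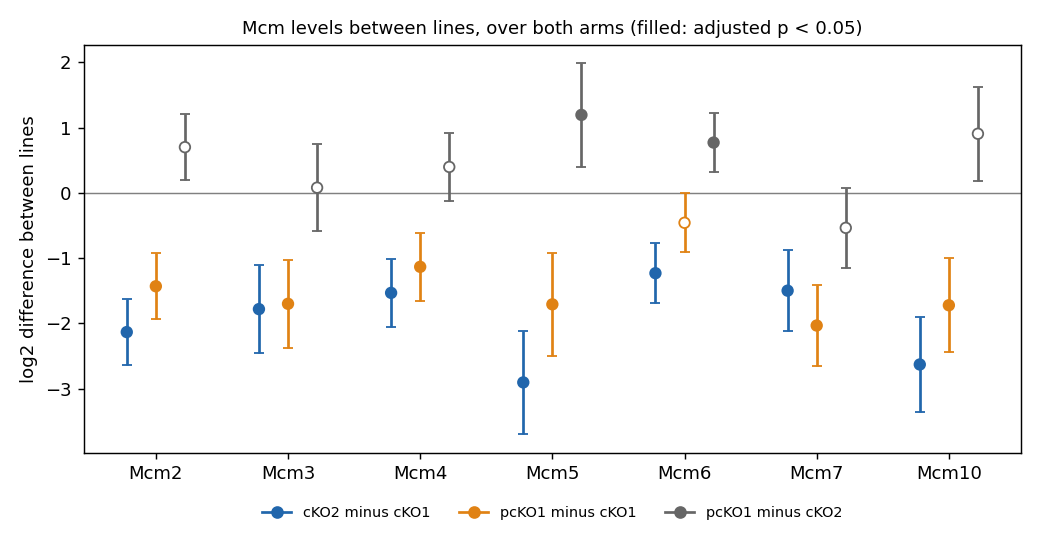
Log2 differences in level between lines over both arms (vertical axis) for each MCM gene, with 95% intervals from limma and filled points at an adjusted p under 0.05. All 7 points of cKO2 minus cKO1 are filled and below 0, 6 of 7 of pcKO1 minus cKO1 are, and for pcKO1 minus cKO2 only Mcm5 and Mcm6 are filled, above 0.

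Each MCM gene was lower in cKO2 than in cKO1 within each arm as well. The place of pcKO1 was not the same for every gene. Against cKO2, pcKO1 was lower for Mcm7, by -0.70 (GFP) and -0.37 (Cre) on the log2 scale, and higher for the other MCM genes. For Mcm3 that difference was 0.02 with GFP. In the GFP arm alone, cKO2 minus cKO1 was -0.89 (Mcm7) to -2.07 (Mcm5) on the log2 scale, and in the Cre arm alone -1.42 (Mcm6) to -3.74 (Mcm5). The range between lines was wider with Cre for 7 of 7 MCM genes and for 63.1% of all genes. For the MCM genes this follows from the changes above and adds no separate observation, since cKO1 was highest and rose while the other lines fell. Across the 8 arrays the 21 pairs of MCM genes had Pearson correlations from 0.60 (Mcm6 with Mcm7) to 0.99, with a median of 0.95. The arrays share 3 lines and a pair of duplicates and so are not independent.

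Genes outside the family were then set beside it by their roles, in lists of textbook function. The lists were chosen with earlier results of these data known, so they are not independent of them. Not every listed gene was tested. The tested genes were 6 of 9 for origins and loading, 6 of 12 for activation and 18 of 24 for the fork. For E2F and pocket proteins they were 9 of 13, and for proliferation markers 4 of 9. No gene of any list passed the Cre test by limma. The counts by sign for each list stand against 47.5% of all genes above 0 in cKO1, 48.5% below 0 in cKO2 and 50.9% below 0 in pcKO1. Among genes for origin recognition and helicase loading, 5 of 6 tested had a log2 change above 0 in cKO1 and 4 of 6 one below 0 in cKO2 and in pcKO1, with medians of 0.51, -0.05 and -0.32. Cdt1, which brings the ring to the origin, had 0.86, -0.68 and -0.44 in these lines, named in that order here and for the genes that follow. Cdc6, its partner in loading, had 0.41, -0.15 and -0.52. Gmnn, the inhibitor of Cdt1, was detected on 0 arrays.

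Of the genes that turn the loaded ring into a working helicase, 5 of 6 were above 0 in cKO1, 5 below 0 in cKO2 and 6 below 0 in pcKO1, with median log2 changes of 0.43, -0.19 and -0.13. Cdc45, which travels with the ring at the fork, had 0.92, -0.36 and -0.20 in cKO1, cKO2 and pcKO1. Cdc7, the kinase that phosphorylates the MCM ring, had 0.67, -0.29 and -0.84, and Dbf4, its activating subunit, had 0.51, -0.37 and -0.56. Mtbp, which takes part in origin firing, was below 0 in every line, with -0.04, -0.09 and -0.03.

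Fork proteins other than the helicase (clamp loader, polymerases, RPA, Fen1, Lig1 and others) were above 0 in cKO1 for 14 of 18 genes, below 0 in cKO2 for 18 and below 0 in pcKO1 for 16, with median log2 changes of 0.25, -0.20 and -0.32. The flap nuclease Fen1 had 0.70, -0.44 and -0.84. Below 0 in all 3 lines were the polymerase delta subunit Pold3 (-0.63, -0.35 and -0.30, with a mean of -0.43 ± 0.14 and adjusted p = 0.967 by limma), the ligase Lig1 (-0.07, -0.32 and -0.53), Rfc1 of the clamp loader (-0.09, -0.08 and -0.02) and Rpa3 of the single-strand binding complex (-0.02, -0.04 and -0.23). Pcna, the clamp itself, was detected on 1 array and not tested.

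E2F and pocket protein genes were above 0 in cKO1 for 8 of 9, and below 0 for 4 of 9 in cKO2 and 6 of 9 in pcKO1, with median log2 changes of 0.20, 0.01 and -0.41. E2f1, an activator of replication genes, was above 0 in every line with 0.34, 0.03 and 0.13, as was the repressor E2f6 with 0.69, 0.05 and 0.23. Rbl1, which encodes the pocket protein p107, was below 0 in every line with -1.10, -0.18 and -0.41 (mean -0.56 ± 0.18, adjusted p = 0.967 by limma). Mcmbp, whose protein binds the MCM subunits, was also below 0 in every line, with -0.34, -0.21 and -0.28 (mean -0.27 ± 0.13, adjusted p = 0.967 by limma). Mcm8 and Mcm9, relatives that act in recombination, were detected on 0 and 2 arrays.

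Of 9 proliferation markers listed, 6 were on the array and 4 were tested. Ccnb1, Ccna2, Bub1 and Aurkb were not tested. The 4 tested genes of mitosis and chromosome handling, Top2a, Cdk1, Aurka and Plk1, differed among themselves in cKO1. All 4 were below 0 in cKO2 and pcKO1, but 2 of the 4 were below 0 in cKO1 too. Plk1, a mitotic kinase, had -0.22, -0.97 and -0.58 in cKO1, cKO2 and pcKO1 (mean -0.59 ± 0.17, adjusted p = 0.967 by limma), and Top2a, a topoisomerase, had -0.07, -0.42 and -0.49. Cdk1 had 0.02, -0.24 and -0.37, and Aurka, another mitotic kinase, had 1.07, -0.39 and -0.28. The median log2 change of the 4 in cKO1 was -0.03, against 0.71 for the MCM genes, and this difference was not tested. Mki67, Gins1 and Gins2 had no probe under these symbols.

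**Figure D5:**
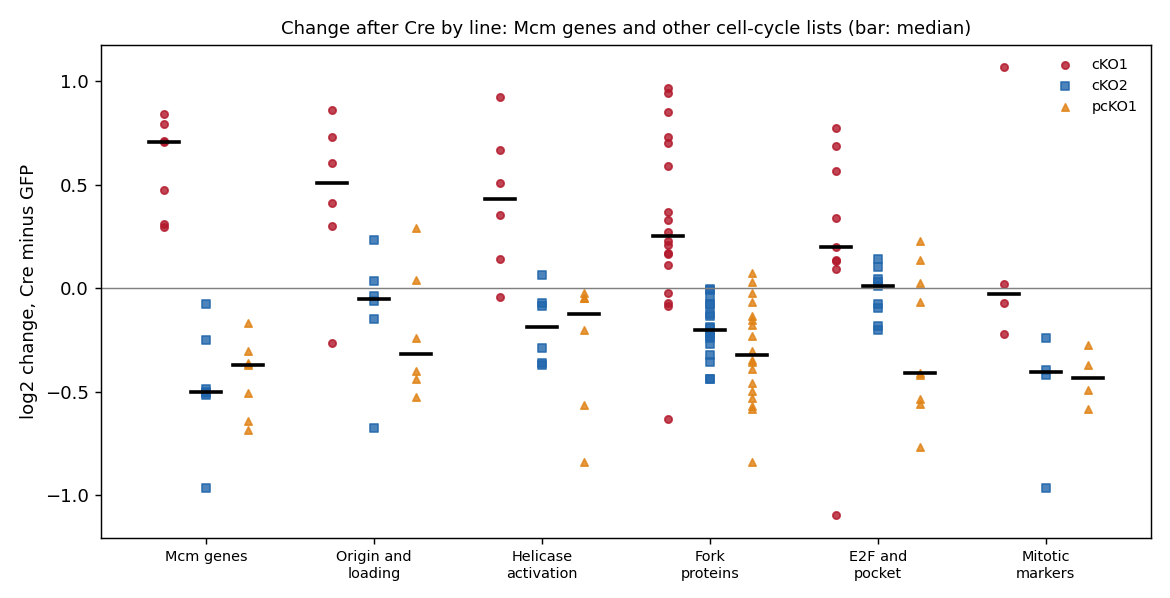
Log2 change (Cre minus GFP, vertical axis) in cKO1, cKO2 and pcKO1 for each tested gene of the MCM family and of 5 other lists, with a bar at each median. MCM medians are 0.71, -0.50 and -0.37, the other lists lie nearer 0 in cKO1 and cKO2, and the mitotic markers have a cKO1 median of -0.03.

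Most fork, activation and mitotic genes also differed between lines. In cKO2 against cKO1, 16 of 18 fork genes, 5 of 6 activation genes, 4 of 4 mitotic markers, 3 of 6 loading genes and 4 of 9 E2F and pocket genes were lower at an adjusted p under 0.05 by limma, and Rb1 alone was higher. Of all genes, 18.4% were lower and 19.3% higher. Cdt1 was lower by -2.45 on the log2 scale (adjusted p = 0.00091), Dbf4 by -2.21 (adjusted p = 0.000458) and Plk1 by -2.52 (adjusted p = 7.71e-05). Mcmbp was lower by -0.93 (adjusted p = 0.0028). In pcKO1 against cKO1, the counts were 12 of 18, 5 of 6, 4 of 4, 3 of 6 and 3 of 9, again with Rb1 alone higher. Here 13.8% of all genes were lower and 15.3% higher.

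The 10 tested genes outside the family whose pattern over the 8 arrays was most like the mean of the MCM genes had Pearson r of 0.992 to 0.998. They were Chaf1b, Cdt1, Dnph1, Dbf4, Mrps22, Rbpms2, Tyms-ps, Ndc80, Cdc45 and the probe ILMN_2676726, which had no symbol. Chaf1b, a subunit of the chromatin assembly factor that deposits new H3 and H4 at forks, was first with 0.998 and had log2 changes of 0.55 (cKO1), -0.41 (cKO2) and -0.45 (pcKO1). A correlation above 0.9 with the MCM mean was found for 639 of 8481 other genes (7.53%), and the arrays of a line share their source of cells.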

How the data were processed

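RNA of MEF cultures was measured on 8 Illumina MouseRef-8 arrays. The authors, using GenomeStudio, deposited intensity values named by sample, on a linear scale with 1 common mean per array, and these were used. A second table holds a deposited detection p-value for each probe, in columns that name an arm and a cell source (MEF D, G1, G2 or D pooled) but no line of the labels, and these served for the detection filter. Its 8 columns of unscaled signal were not used. Intensities were background corrected by normexp (offset 50), normalized by quantiles and log2 transformed with limma 3.58.1 in R 4.3.3. Probes detected (p under 0.05) on 3 or more of 8 arrays were kept (11152), and the brightest probe stood for each gene. Symbols were the current RefSeq ones matched by the Entrez identifier of the platform annotation, or else that annotation's own. Probes without a symbol were kept singly. The cKO2 duplicates were averaged within each arm. Cre was compared with GFP by limma, blocking on line, with trended eBayes and two-sided p-values, under Benjamini-Hochberg adjustment over 8488 genes at 0.05. Lines were compared in the same fit. Residual degrees of freedom were 2 and prior degrees of freedom 6.31. Arrays were paired by line per the labels, and the Cre and GFP deviations from their arm means had r = 0.818 (cKO1), 0.919 (cKO2) and 0.749 (pcKO1) across genes. The code was tested on simulated data. The MCM genes and all lists were chosen with earlier results of these data known. Genes were named by rule: all members, H3f3b, the 10 genes most like the members, list genes with 1 sign in all lines since under 5 passed, and a fixed set (Cdc6, Cdt1, Gmnn, Cdc45, Gins1, Gins2, Cdc7, Mcm8, Mcmbp, E2f1, Pcna, Mki67). Other genes named with values (Dbf4, Fen1, Aurka, Cdk1, Rb1, Mcm9 and Ap4m1) were chosen after their values were seen. Alternatives covered background, normalization, filter, probe choice, duplicates, block, moderation and left-out lines. Precision is limited by the number of arrays.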

Additional observations from a re-analysis of the deposited data

Results flagged for a closer look

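For each MCM gene the signal was higher with Cre in cKO1 and lower in cKO2 and pcKO1, and the distance between the cKO1 change and the mean change of the other lines is given here on the log2 scale. It was 0.75 for Mcm2, 1.22 for Mcm3, 0.87 for Mcm4, 1.53 for Mcm5, 0.53 for Mcm6, 1.04 for Mcm7 and 1.35 for Mcm10. Each line was counted as 1 Cre and 1 GFP culture (duplicate arrays in cKO2), so the difference between lines was not tested.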

How the results depend on the processing

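In cKO1, cKO2 and pcKO1 every MCM gene kept its direction of change under every alternative that gives a value by line, and the median change ranged from 0.48 to 0.72, from -0.65 to -0.37 and from -0.50 to -0.33 on the log2 scale. For Mcm7 in pcKO1 that direction rests on deposited intensities that hardly differed between the arms. Without the line as a block, the pairing being set aside, 0 genes were called; with 1 value per line and arm the estimates, such as the median MCM change of -0.042, cannot differ. The mean over the lines is near 0, and its sign turned for Mcm3 (0.031) and Mcm10 (0.00079) with no background correction, for Mcm7 with an offset of 16 (-0.045), median scaling (-0.054), separate cKO2 pairs (-0.12) and the first cKO2 pair left out (-0.018), for Mcm3 with the deposited values as they stand (0.023), and for Mcm2 with the first cKO2 pair left out (0.025). Leaving out a line in turn, the mean ranged from -0.27 to 0.11 for Mcm2, -0.43 to 0.21 for Mcm3, -0.57 to -0.11 for Mcm4, -0.82 to 0.014 for Mcm5, -0.22 to 0.12 for Mcm6, -0.34 to 0.27 for Mcm7 and -0.51 to 0.17 for Mcm10, always lowest without cKO1. Leaving out a line gave 1 to 61 genes lower and 2 to 39 higher with Cre, and 0 to 3 MCM genes, the 3 without cKO1. Genes lower with Cre numbered 1 with median scaling and with no detection filter, 2 (and 1 higher) with the deposited values as they stand, and 4 (and 1 higher) with separate cKO2 pairs. Leaving out each line's Cre or GFP value in turn was chosen after seeing the data, as was the test of line levels probe by probe and the use of the other Mcm6 probes. For cKO2 minus cKO1, 641 to 2191 genes were then lower and 757 to 2430 higher, and all MCM genes passed. For pcKO1 minus cKO1, 622 to 2026 were lower and 785 to 2204 higher. For pcKO1 minus cKO2, 229 to 1872 were lower and 309 to 1879 higher, with 0 to 6 MCM genes, and Mcm3 ranged from -0.27 to 0.43. Probe by probe, 1765 were lower in pcKO1 minus cKO1 and 1308 in pcKO1 minus cKO2. With median scaling 1172 genes were lower and 1878 higher in cKO2 minus cKO1, against 1562 and 1634. Detection on all 8 arrays leaves out Mcm7 and Mcm10. The neqc alternative was not run, since it needs the columns not used. The causes were not tested.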
